A study of Mus musculus with 16 samples.

Results

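Molecular chaperones of the cytosol and mitochondria were examined in quadriceps femoris of aged mice that lack ATF4, a stress-responsive transcription factor, in muscle fibers. The members were chosen by gene symbol. They comprised the HSP70 family (Hspa and Hsph), small heat shock proteins (Hspb), cytosolic HSP90, J proteins (Dnaja, Dnajb and Dnajc), subunits of the chaperonin CCT, BAG proteins, and a set that included Hspd1, Hspe1, Trap1, Clpp and Stip1. Hspa5, Dnajb9, Dnajb11 and Dnajc3, which act in the endoplasmic reticulum, were left out. The rule found 104 of 25697 probes, which stood for 77 of 16593 genes. It also took in some proteins of the endoplasmic reticulum, among them Hspa13, Dnajb12, Dnajc1 and Dnajc10, so the location in the name holds for most members and not for all. Hspa1b, Hsp90ab1 and Lonp1 fall under the rule but were not analysed here.

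The mice were male and 22 months old, with 8 mice per genotype and 1 Illumina Mouse Ref-8 array per mouse. ATF4 mKO mice carried floxed Atf4 alleles on both chromosomes and an MCK-Cre transgene, which removes the floxed gene in skeletal muscle fibers and heart. Littermate control mice carried the same floxed alleles without MCK-Cre, so the comparison holds the floxed alleles constant and does not control for the transgene itself. Other cells of the muscle keep their Atf4 gene. Atf4 itself averaged 10.45 ± 0.12 with the gene intact and 8.52 ± 0.05 (SD, n = 8) after its deletion, and the genotypes did not overlap. All values are log2 signals as deposited. They ran from 8.25 to 15.401 over the table, with a floor near 8.3 close to which differences of weakly expressed mRNAs shrink. Of the 77 chaperone genes, 54 had a probe with a mean signal of at least 8.5. Arrays correlated between 0.994 and 0.998. On the first principal components, which held 17.3% and 14.8% of the variance, 6 mice lay farther out than the rest, control mice 3 and 7 and ATF4 mKO mice 1, 3, 5 and 8. Without control mice 3 and 7, or without any single mouse, the number of chaperone probes called was 0, as with all mice. ATF4 mKO mice 1, 3, 5 and 8 were left out only 1 at a time and not together.

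Chaperones bind unfolded or partly folded proteins and either hold them soluble or help them fold. HSP70 proteins work in cycles of ATP hydrolysis that J proteins start and that BAG proteins and the HSP110 class, to which Hsph1 belongs, help to end by nucleotide exchange. Small heat shock proteins hold unfolding proteins without ATP and are abundant in striated muscle, where several bind the contractile apparatus. CCT is a ring-shaped chaperonin that folds actin and tubulin, and inside mitochondria Hspa9 draws imported proteins through the membrane and Hspd1 with its lid Hspe1 encloses them for folding. Heat shock factors raise many of these genes under protein damage by binding heat shock elements, runs of GAA units in alternating orientation. ATF4 acts in a different stress response, and its composite sites join a C/EBP site to an ATF site.

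Because chaperone genes are known for heat shock elements, the promoters in which a complete one was found are shown. RefSeq windows that ran from 250 bases before to 50 bases after a gene start (build GRCm38.p6) were found for 63 of the 77 genes, 83 windows in all. The element was searched as GAANNTTCNNGAA or TTCNNGAANNTTC, which is 3 units, on both strands. It was present in 198 of 32851 mouse windows of the same length (0.603%) and in 6 member windows, which belonged to Hspd1, Hspe1, Dnajb6 and Hsph1. The windows of Dnajb6 overlapped and held the same match, as did those of Hsph1, so the 6 windows are not separate matches. The windows of the heat-inducible Hspa1a and Dnajb1 were searched and did not hold these letters. Positions are counted from 0 at the annotated start, and capitals mark the element.
Hspe1, chr1:55087898-55088197, plus strand, overlapping matches from -89 and -84: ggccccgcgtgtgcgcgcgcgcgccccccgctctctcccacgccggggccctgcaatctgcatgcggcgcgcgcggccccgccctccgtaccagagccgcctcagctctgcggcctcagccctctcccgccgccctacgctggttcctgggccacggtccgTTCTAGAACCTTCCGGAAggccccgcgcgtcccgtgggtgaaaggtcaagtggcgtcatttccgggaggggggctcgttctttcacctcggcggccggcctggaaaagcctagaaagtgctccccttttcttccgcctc
Hsph1, chr5:149636287-149636586, minus strand, match from 36: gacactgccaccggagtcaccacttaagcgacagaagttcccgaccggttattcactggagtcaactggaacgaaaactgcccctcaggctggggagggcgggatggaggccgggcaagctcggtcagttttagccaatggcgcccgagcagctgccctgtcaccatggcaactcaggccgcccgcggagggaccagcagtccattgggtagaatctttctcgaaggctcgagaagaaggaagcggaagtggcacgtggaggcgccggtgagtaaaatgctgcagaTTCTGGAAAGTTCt
Dnajb6, chr5:29735648-29735947, plus strand, match from -46: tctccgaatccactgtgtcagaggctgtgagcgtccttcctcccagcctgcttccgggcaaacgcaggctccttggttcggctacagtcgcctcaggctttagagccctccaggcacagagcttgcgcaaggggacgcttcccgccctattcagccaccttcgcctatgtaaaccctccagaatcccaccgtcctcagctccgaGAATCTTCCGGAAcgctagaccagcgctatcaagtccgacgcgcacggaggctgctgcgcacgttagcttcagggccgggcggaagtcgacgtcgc
Hspd1 lies head to head with Hspe1, on the minus strand, and its window (chr1:55087883-55088182) holds the same pair of matches read from the other side. The C/EBP-ATF element was searched as TGATGNAA on both strands. It occurred in 1304 windows (3.97%) and in the window of 1 member, Hspa14. A match is a description of letters and not of binding.

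No chaperone probe passed the test between genotypes. With limma at an adjusted p of 0.1 or less, 0 of 104 probes were called, where 0.136% of all probes were. The count at an unadjusted p of 0.05 or less was 10 (5.62% of all probes passed it). At an unadjusted p of 0.025, the study's level, 8 chaperone probes passed, which is 7.69% of the members against 2.98% of all probes. By direction, 6 of the 8 were lower in ATF4 mKO mice (1.37% of all probes passed in that direction) and 2 were higher (1.61%). The methods' t-test also gave 8 at that level, against 2.85% of all probes, and 0 after adjustment. Of the 8 from limma, 3 lay at the floor, with changes between -0.03 and -0.02. With dim probes left out, 4 of the remaining 64 passed the unadjusted level, against 4.10% of all probes kept. The values of the genotypes were separate, with no overlap, at 0 of 104 chaperone probes and at 0.101% of all probes. In such tissue RNA, fewer cells of a type and less RNA per cell cannot be told apart.

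Each gene was further described by its brightest probe. The median change over the 77 genes was -0.0041 on the log2 scale, beside 0.0005 over all 16593 genes, with 43 genes lower and 34 higher in ATF4 mKO mice. Over the 54 genes above the floor it was 0.0048, beside 0.0017 over all 6380 such genes. The 95% interval of the change lay within ±0.1 for 25 of these 54 genes, within ±0.2 for 45 and within ±0.3 for 49.

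**Figure D1:**
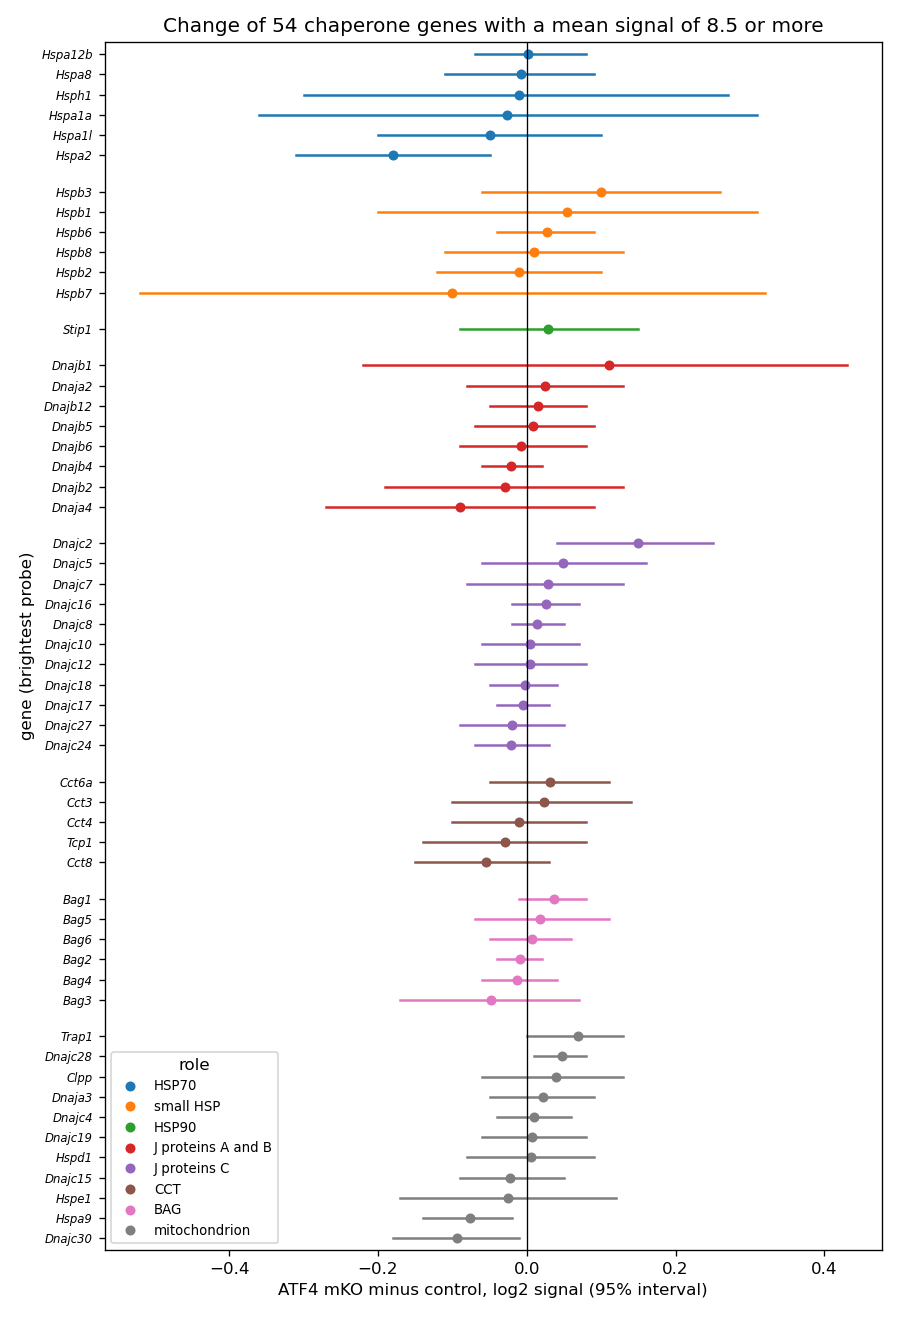
Change of the log2 signal (ATF4 mKO minus control, x axis) for the 54 chaperone genes with a mean signal of at least 8.5, grouped and coloured by role. Points are estimates and bars 95% intervals from limma (n = 8 per genotype). Most intervals span 0, and the widest belongs to Hspb7 (-0.52 to 0.32).

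Mitochondrial members did not move together. Of the 12 genes, 5 were lower and 7 higher in ATF4 mKO mice, 0 were called, and the median change was 0.0062. Hspa9, the HSP70 of the mitochondrial matrix, had, at its dimmer probe, the smallest p of any chaperone probe. The brighter of its 2 probes read 13.52, 13.58 and 13.66 in control mice (lowest, median and highest) and 13.42, 13.52 and 13.59 in ATF4 mKO mice. Most ATF4 mKO mice lay in the lower part of the control range or under it, but the genotypes overlapped. The change was -0.08 ± 0.03 (S.E.; limma, adjusted p = 0.811), with 7 of 8 ATF4 mKO mice under the control mean. The second Hspa9 probe ran from 12.20 through 12.32 to 12.41 in control mice and from 12.08 through 12.18 to 12.25 in ATF4 mKO mice. Its change was -0.14 ± 0.04, and all 8 ATF4 mKO mice were under the control mean (limma, unadjusted p = 0.00134 and adjusted p = 0.427). Both probes therefore gave the same direction without passing the test. When the probes of each gene were averaged before the fit, Hspa9 changed by -0.11 with an adjusted p of 0.174, the lowest of any member gene, by brightest probe or by the mean of its probes, under the settings run.

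Hspd1 and Hspe1 gave smaller differences than Hspa9, and Trap1 gave one of nearly the size of the brighter Hspa9 probe, in the other direction. Hspd1, the matrix chaperonin, which is named here after its values were seen, had a control mean of 11.46 ± 0.10 and an ATF4 mKO mean of 11.46 ± 0.07 (SD, n = 8), and its second probe had a change of 0.01 as well. Hspe1, its lid, had medians of 9.78 and 9.80 with a change of -0.02 ± 0.07 (S.E.). Its 2 genotypes covered almost the same range, 9.69 to 10.12 in control and 9.60 to 10.06 in ATF4 mKO mice. Trap1, the mitochondrial HSP90, read 11.52, 11.54 and 11.68 in control mice and 11.54, 11.64 and 11.76 in ATF4 mKO mice (lowest, median and highest). The medians differed and the ranges overlapped over most of their length (change 0.07 ± 0.03, limma, unadjusted p = 0.0427 and adjusted p = 0.879).

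Among mitochondrial J proteins, Dnajc30 read 10.52, 10.63 and 10.76 in control and 10.40, 10.56 and 10.70 in ATF4 mKO mice. Its change was -0.09 ± 0.04 (limma, adjusted p = 0.864), and 6 of 8 ATF4 mKO mice were under the control mean. Dnajc28 lay near the floor and gave 0.05 ± 0.02 (adjusted p = 0.758), with 1 of 8 ATF4 mKO mice under the control mean. Dnajc15 and Dnajc19, J proteins linked to the import motor, gave -0.02 and 0.01, and Dnaja3, a matrix J protein, gave 0.02. Clpp, the proteolytic subunit of the matrix ClpXP protease and named after its values were seen, gave 0.04 ± 0.05.

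**Figure D2:**
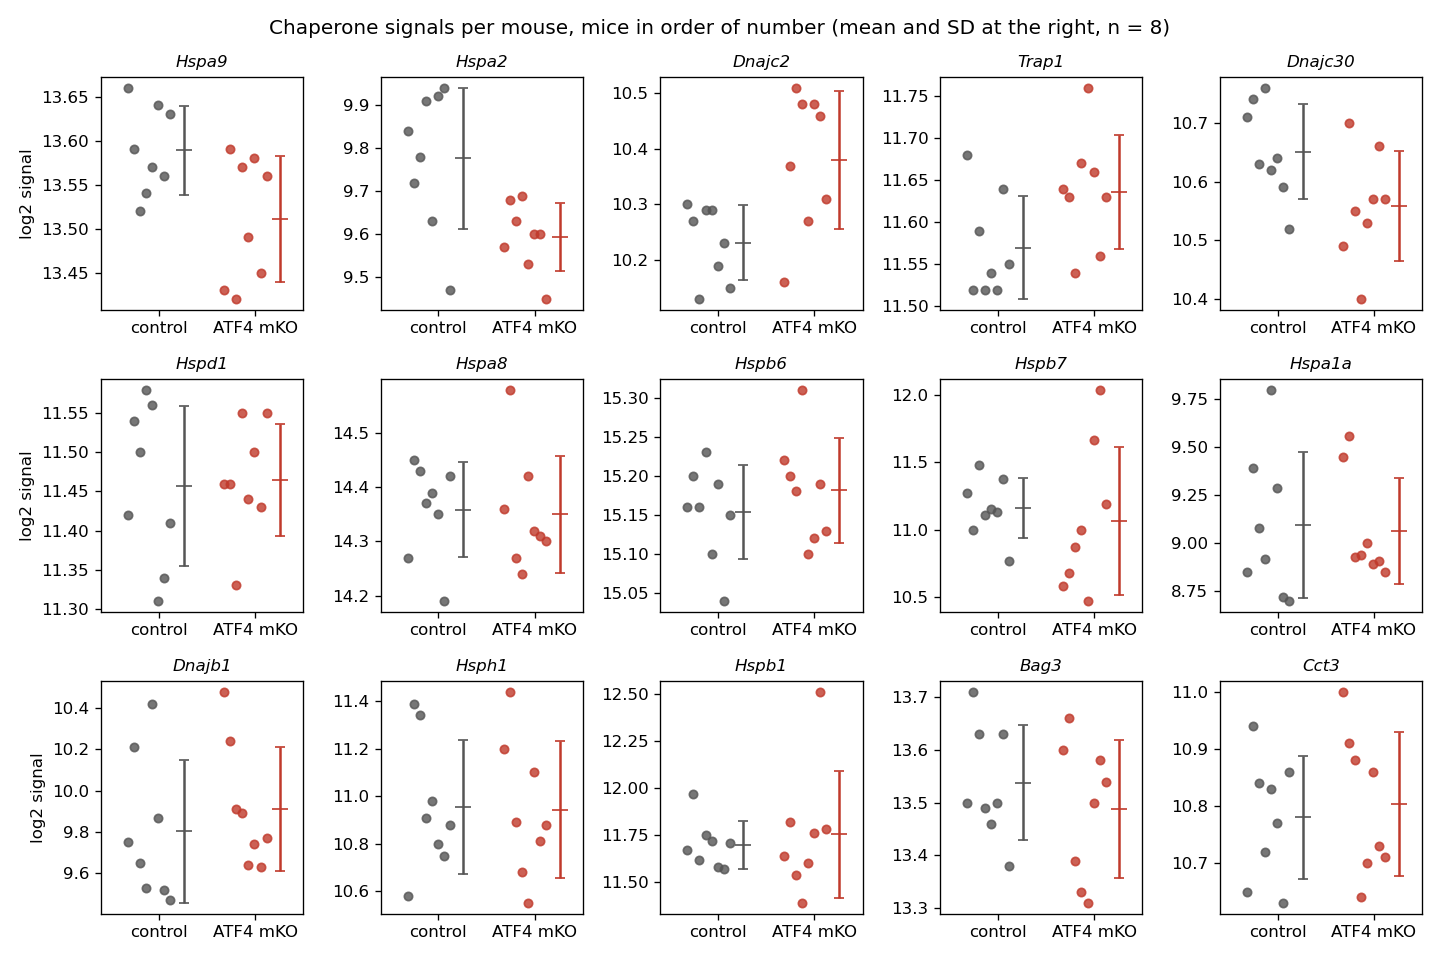
Log2 signal per mouse (y axis, own scale in each panel) for 15 chaperone genes by genotype, brightest probe of each gene. Points are mice, and the bar to their right is the mean with the SD (n = 8). The genotypes overlap in every panel, and for Hspb1 a single ATF4 mKO mouse reads 12.51.

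In the HSP70 family outside the mitochondrion (without Hspa9), 10 of 11 genes were lower in ATF4 mKO mice and 0 were called, with a median change of -0.02. Over all members 43 of 77 genes were lower, and the share over all genes is not given here. Of the HSP70 genes, 5 lay under 8.5, where little change can appear. The changes of Hspa8, Hsph1 and Hspa1a were smaller than their standard errors and turned sign when single mice were left out. Hspa8, the constitutive cytosolic HSP70, read 14.19, 14.38 and 14.45 in control and 14.24, 14.32 and 14.58 in ATF4 mKO mice (lowest, median and highest). These ranges lay within each other for nearly their whole length, and the change was -0.0081 ± 0.05 (limma, adjusted p = 0.998). A dimmer Hspa8 probe gave -0.08 ± 0.08. Hspa2, an HSP70 best known for its part in spermatogenesis, had the largest change by a brightest probe. Its control mice read 9.47, 9.81 and 9.94, and its ATF4 mKO mice 9.45, 9.60 and 9.69. All 8 ATF4 mKO mice were under the control mean, but control mouse 8, at 9.47, lay among the lowest ATF4 mKO mice. The change was -0.18 ± 0.06 (limma, unadjusted p = 0.00829, adjusted p = 0.734), and without control mouse 8 it was -0.23 with an adjusted p of 0.187. Without control mouse 4 instead, no member gene had a limma adjusted p under 0.716 by its brightest probe. A second, dimmer Hspa2 probe gave -0.01 ± 0.02. Hspa14, a ribosome-associated HSP70 and the member with the C/EBP-ATF letters in its window, was at the floor in both genotypes, 8.30 to 8.36 in control and 8.28 to 8.33 in ATF4 mKO mice (change -0.03, adjusted p = 0.560).

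The heat-inducible Hspa1a differed between mice far more than between genotypes. It read 8.70, 9.00 and 9.80 in control mice and 8.85, 8.93 and 9.56 in ATF4 mKO mice, a change of -0.03 ± 0.16 (limma, adjusted p = 0.998). The nearly identical Hspa1b may share its probe. Hsph1, the HSP110 whose window is printed above, read 10.58, 10.90 and 11.39 in control and 10.55, 10.89 and 11.44 in ATF4 mKO mice. The genotypes spanned the same range, and the change was -0.01 ± 0.13. Hspa1l, which is closely related to Hspa1a, gave -0.05 ± 0.07, and Hspa4 and Hspa4l, further HSP110 class members, gave -0.03 and -0.02 close to the floor.

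All 6 small heat shock protein genes lay above the floor. Of these, 2 were lower and 4 higher in ATF4 mKO mice, with changes from -0.10 to 0.10 and none called. Hspb6, which is abundant in muscle, read 15.04 to 15.23 in control and 15.10 to 15.31 in ATF4 mKO mice, close to the highest signal of the table. Hspb8, the partner of Bag3 in a complex that clears damaged filament proteins, read 12.02, 12.36 and 12.55 in control and 12.20, 12.35 and 12.43 in ATF4 mKO mice. Its medians were nearly equal. Hspb3, a small heat shock protein of muscle, gave 0.10 ± 0.08 (limma, adjusted p = 0.924), with 1 of 8 ATF4 mKO mice under the control mean.

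Hspb7 and Hspb1 stood out for their spread among ATF4 mKO mice. Hspb7, a muscle small heat shock protein that binds filamin, read 10.77, 11.14 and 11.48 in control mice and 10.47, 10.93 and 12.04 in ATF4 mKO mice. The SD of control mice was 0.22 and that of ATF4 mKO mice 0.55 (n = 8), with ATF4 mKO mice 6 and 7 at 11.67 and 12.04 above every control mouse and ATF4 mKO mice 5, 1 and 2 at 10.47, 10.58 and 10.68 below every control mouse. The difference in spread was not tested, and the change in the mean was -0.10 ± 0.20 (limma, adjusted p = 0.986). Hspb1 read 11.57, 11.69 and 11.97 in control mice and 11.39, 11.70 and 12.51 in ATF4 mKO mice. The highest value again came from ATF4 mKO mouse 7. The Hspb1 change was 0.05 ± 0.12, and without ATF4 mKO mouse 7 it was -0.05.

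J proteins of classes A and B, 13 genes outside the mitochondrion, had changes from -0.09 to 0.11 and a median of -0.0036, with 7 lower, 6 higher and 0 called. Dnajb1, the heat-inducible partner of Hspa1a, read 9.47, 9.70 and 10.42 in control and 9.63, 9.83 and 10.48 in ATF4 mKO mice. Single mice of both genotypes were far above the rest, and the change was 0.11 ± 0.15 (limma, adjusted p = 0.974). It was 0.03 without ATF4 mKO mouse 1 and 0.20 without control mouse 5. Dnaja4 gave -0.09 ± 0.08 and Dnajb2, a chaperone that passes clients to the proteasome, gave -0.03 ± 0.08. Dnajb6, which suppresses protein aggregation and causes a limb-girdle muscular dystrophy when mutated in humans, read 11.22, 11.33 and 11.54 in control and 11.22, 11.34 and 11.43 in ATF4 mKO mice. Its genotypes shared their lowest value, and its probes gave -0.0082 and 0.04, neither called. Dnajb4 had 3 probes with changes of -0.02, 0.03 and -0.01. Dnajb3, at the floor, gave -0.03 (adjusted p = 0.734), and the probes of Dnaja1, also at the floor, gave -0.0091 and 0.0068.

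The 17 class C J proteins outside the mitochondrion had a median change of -0.0021, with 9 lower and 8 higher. Dnajc2, a J protein of the ribosome, had the largest positive change of all members. It read 10.13, 10.25 and 10.30 in control mice and 10.16, 10.41 and 10.51 in ATF4 mKO mice. ATF4 mKO mice 1 and 5, at 10.16 and 10.27, lay within the control range, and the other 6 lay above it. The change was 0.15 ± 0.05 (limma, unadjusted p = 0.00746, adjusted p = 0.723), and without ATF4 mKO mouse 1 the adjusted p was 0.235. Without ATF4 mKO mouse 4 instead, no member gene had a limma adjusted p under 0.731 by its brightest probe. The other Dnajc2 probes were close to the floor and gave 0.0060 and 0.0030. Dnajc5, a synaptic vesicle J protein, gave 0.05 ± 0.05, Dnajc7, which bridges HSP70 and HSP90, gave 0.03 ± 0.05, and Dnajc10, a disulfide reductase of the endoplasmic reticulum, gave 0.0049 with a dimmer probe at -0.01.

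HSP90 could be judged only in part. Both Hsp90aa1 probes, for the inducible cytosolic HSP90, lay at the floor and gave -0.0041 and 0.0053, so a fall could not have shown. Stip1, the co-chaperone that joins HSP70 to HSP90, read 10.69, 10.83 and 10.96 in control and 10.70, 10.84 and 11.05 in ATF4 mKO mice. Its ranges began at almost the same value, and the change was 0.03 ± 0.06 (limma, adjusted p = 0.986).

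Of the 10 chaperonin genes, 6 were lower and 4 higher, and the 5 above the floor gave changes between -0.06 and 0.03. Cct8 read 10.77, 10.80 and 11.07 in control and 10.67, 10.79 and 10.92 in ATF4 mKO mice. Its medians were nearly equal, and the change was -0.06 ± 0.04 (limma, adjusted p = 0.927). Tcp1, a CCT subunit, gave -0.03 ± 0.05, Cct4 gave -0.01 ± 0.04 and Cct6a 0.03 ± 0.04. The probes of Cct2, Cct5 and Cct7, subunits of the same ring, lay at the floor, where a fall could not have shown. Cct8l1, at the floor, gave -0.02 (adjusted p = 0.808).

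The 6 BAG genes gave changes from -0.05 to 0.04, with 3 lower and 3 higher. Bag3, which joins HSP70 to small heat shock proteins at the Z-disc, read 13.38, 13.50 and 13.71 in control and 13.31, 13.52 and 13.66 in ATF4 mKO mice, and the genotypes overlapped almost fully (change -0.05 ± 0.06, limma, adjusted p = 0.965). Bag1, a nucleotide exchange factor, gave 0.04 ± 0.02 (adjusted p = 0.894), with 1 of 8 ATF4 mKO mice under the control mean.

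A few chaperone genes varied strongly between mice of the same genotype. Among the 6380 genes above the floor, the share with a larger SD within genotypes was 0.439% for Hspb7, 0.909% for Hspa1a, 1.02% for Dnajb1, 1.29% for Hsph1 and 1.82% for Hspb1. It was 8.18% for Hspe1, 32.6% for Hspd1 and 34.4% for Dnajb6, whose windows hold the heat shock element as that of Hsph1 does. The median SD was 0.0875 over the 54 chaperone genes and 0.0719 over all genes above the floor, a description with no test. Hspa1a was high in control mice 5, 2 and 6 (9.80, 9.39 and 9.29) and in ATF4 mKO mice 2 and 1 (9.56 and 9.45), while the other 6 ATF4 mKO mice lay between 8.85 and 9.00. Dnajb1 was highest in control mice 5 and 2 (10.42 and 10.21) and in ATF4 mKO mice 1 and 2 (10.48 and 10.24). The same 4 mice thus had the highest values of both genes within their genotype. Hsph1 was highest in control mice 2 and 3 (11.39 and 11.34) and in ATF4 mKO mice 2 and 1 (11.44 and 11.20).

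**Figure D3:**
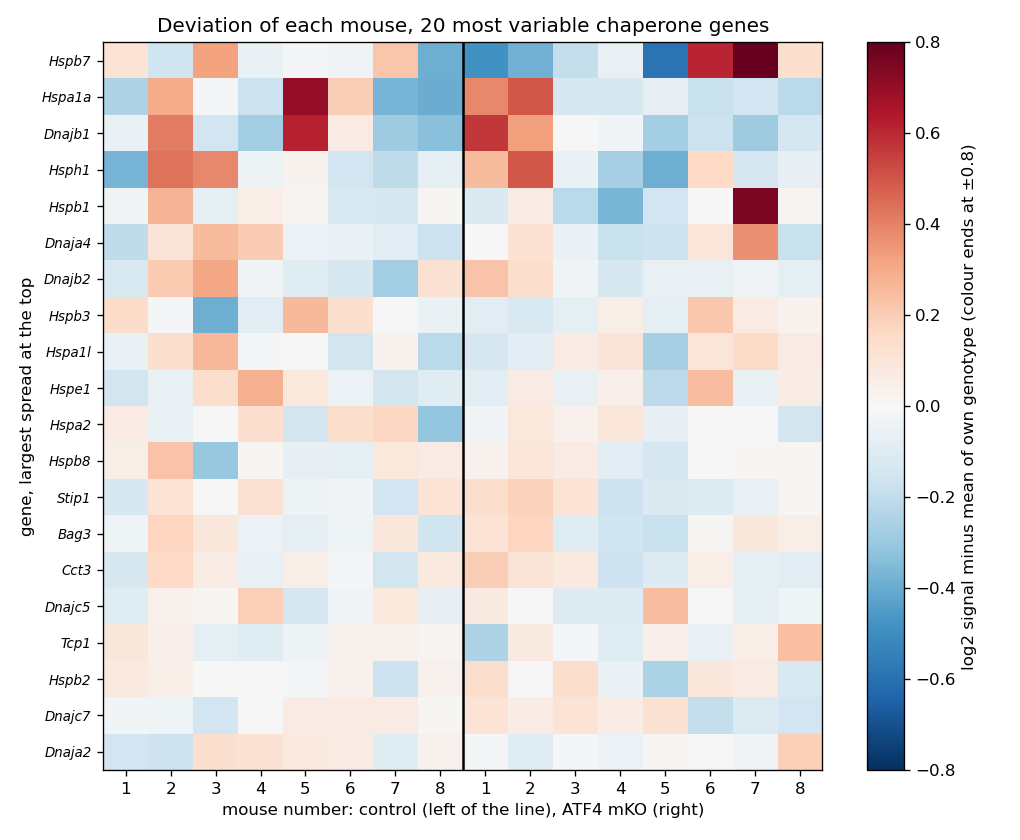
Log2 signal of each mouse minus the mean of its genotype (colour, ends at ±0.8) for the 20 chaperone genes with the largest spread within genotypes (y axis), by mouse (x axis). Hspa1a and Dnajb1 are raised together in control mice 2 and 5 and ATF4 mKO mice 1 and 2, and Hspb7 and Hspb1 in ATF4 mKO mouse 7.

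Whether these genes varied together was examined within each genotype. Over the pairs of the 5 most variable genes, chosen after their values were seen, 20 relations were computed. Hspa1a and Dnajb1 correlated in control mice (Pearson r = 0.944, exact permutation p = 0.00067, adjusted p = 0.0134, n = 8), with a Spearman rho of 0.929 (exact permutation p = 0.00223, adjusted p = 0.0446). Without the 2 mice farthest from the median Hspa1a signal r was 0.806. In ATF4 mKO mice r was 0.873 (exact permutation p = 0.0289, adjusted p = 0.163) and rho 0.571 (exact permutation p = 0.151, adjusted p = 0.432), and without the 2 farthest mice r was -0.139, so the relation there rested on these mice. Hspb7 and Hspb1 gave r = 0.721 in ATF4 mKO mice (exact permutation p = 0.04, adjusted p = 0.163) and rho = 0.429 (exact permutation p = 0.299, adjusted p = 0.649), and r = -0.0355 without 2 mice.

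Hsph1 and Hspa8 were each set against the other chaperone genes above the floor, 210 relations in all. Genes outside the chaperones were not set against these anchors, so the counts of relations have no background share here. Of the 210 relations, 24 had a p of 0.05 or less by an exact permutation test, and 1 passed adjustment. This was Hspa8 with Cct3, a CCT subunit, in control mice (r = 0.92, exact permutation p = 0.000223, adjusted p = 0.0469, n = 8). The rank correlation was 0.952 (exact permutation p = 0.00114, adjusted p = 0.234), and r without 2 mice was 0.884. In ATF4 mKO mice r for this pair was 0.41, and the difference between genotypes was not tested. The 210 relations were adjusted apart from the pairs of the most variable genes. An adjustment over both sets together was not run. Each relation used the brightest probe of a gene. Dimmer probes of Hspa8 and Cct3, with mean signals of 12.72 and 9.6, were also above the floor. The relation was not computed for them, so it rests on 1 probe per gene. Hsph1 had an r above 0.5 in both genotypes with 7 of 53 genes. Among them was Cct3 (0.814 in control and 0.819 in ATF4 mKO mice). Without the 2 mice farthest from the median Hsph1 signal these were 0.745 and 0.896. The rank correlation of Hsph1 with Cct3 was 0.786 and 0.905. With Stip1 r was 0.570 and 0.755, rho 0.643 and 0.833, and r without 2 mice 0.677 and 0.559. In control mice some of these relations rested on the 2 mice left out. With Bag3 r was 0.576 in control mice but rho 0.143, and r without 2 mice was -0.428, while in ATF4 mKO mice r was 0.824, rho 0.786 and r without 2 mice 0.601. With Dnajb2 r went from 0.830 to 0.417 in control mice without 2 mice (rho 0.810), and from 0.756 to 0.761 in ATF4 mKO mice (rho 0.643). With Dnajc12, a J protein that acts on aromatic amino acid hydroxylases, r was negative in both (-0.853 and -0.878, with rho -0.619 and -0.786), and without 2 mice it went to -0.303 in control mice and to -0.716 without Atf4. None of the Hsph1 relations passed adjustment, the lowest adjusted p being 0.303. Cct3 and Dnajc12 are named after their values were seen.

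**Figure D4:**
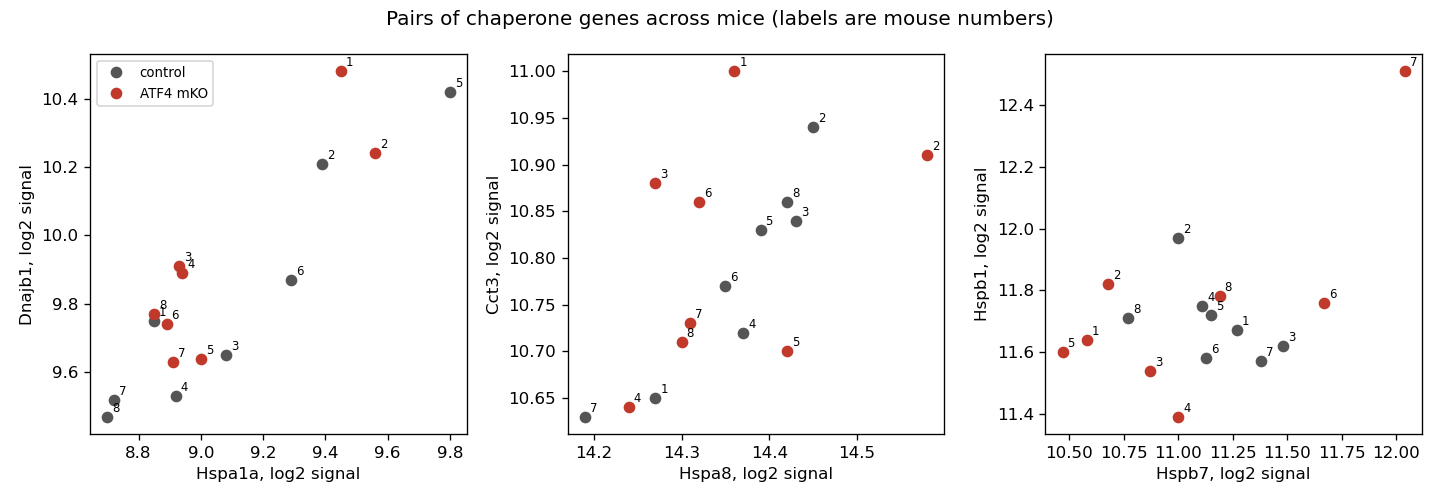
Log2 signals of Hspa1a and Dnajb1, Hspa8 and Cct3, and Hspb7 and Hspb1 across mice, control in grey and ATF4 mKO in red, numbered by mouse. Hspa1a and Dnajb1 rise together in control mice (r = 0.944), and the Hspb7 and Hspb1 panel shows ATF4 mKO mouse 7 apart at 12.04 and 12.51.

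Other genes of chaperone pathways gave the same count. Of 35 listed, 31 were measured and 0 were called. The heat shock factor Hsf2 gave -0.02 ± 0.02 and Hsbp1, which binds heat shock factor, gave -0.03 ± 0.02. Hsf1 was listed but was not analysed here. Cryab, a major small heat shock protein of muscle outside the Hspb symbols, averaged 13.39 in control mice and 13.36 without Atf4, and Unc45b, a myosin chaperone, gave 0.07 ± 0.06. Grpel1, the exchange factor of Hspa9, gave -0.01 ± 0.07, and Spg7, a protease subunit of the inner membrane, gave 0.08 ± 0.05.

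Markers of cell types gave 0 calls among 20 measured of 23 listed. The log2 signals of the 5 muscle fiber markers (Acta1, Ckm, Myh4, Tnnt3 and Actn3) summed to between 73.8 and 74.6 in each genotype. Acta1, Ckm and Actn3, at mean signals of 15.1, 15.11 and 15.01, lay close to the highest signal of the table. The red blood cell markers Hba-a1 and Alas2 gave -0.44 ± 0.24 and -0.14 ± 0.09, with sums from 21.4 to 23.7 in control and 20.7 to 22.4 in ATF4 mKO mice, and their part in the chaperone values was not tested. Satellite cell markers (Pax7 and Myf5) were at the floor.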

How the data were processed

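Quadriceps RNA from 8 control and 8 ATF4 mKO mice was hybridized by the authors to Illumina Mouse Ref-8 arrays and extracted in BeadStudio. The authors deposited 1 table of log2 signals, which was used as given, and its background correction and normalization are not stated in the sources used. The array medians lay between 8.378 and 8.381, so median centring could move the values little. Symbols came from the platform annotation, which named 23978 of 25697 probes, and all 104 member probes matched the reference by gene identifier.

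Genotypes were compared over 16 arrays by lmFit and eBayes (limma 3.58.1, R 4.3.3, two-sided), with Benjamini-Hochberg adjustment over the 25697 probes. The script was tested on simulated data. Relations across mice used exact permutation tests (SciPy 1.17.1, Python 3.11.15), each over 40320 pairings. The members, lists, tests and alternatives were chosen with earlier results of these data known. The genes named were, by brightest probe in each role group, up to 4 with the smallest p and up to 4 with the highest signal, and the 10 members with the largest spread. Replicates are separate mice. The number of arrays limits the precision. The alternatives were quantile normalization, median centring, leaving out dim probes, array weights, mouse number as a block, another variance prior, the methods' t-test, a stricter threshold, the mean of probes, and leaving out mice.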

Additional observations from a re-analysis of the deposited data

Results flagged for a closer look

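Single mice stood apart from the other mice of their genotype in 5 of 100 groups tested (50 named genes, each in both genotypes), a gap to the nearest mouse that chance gives in about 1 of 20 groups. The Hspb1 signal of ATF4 mKO mouse 7 was 12.51, with the nearest mouse at 11.82, and that of control mouse 2 was 11.97, with the nearest at 11.75. Among chaperonin subunits, Cct4 was 11.96 in control mouse 7 (nearest 11.80) and Cct8 was 11.07 in control mouse 3 (nearest 10.89). Bag6, a BAG protein that handles mislocalized membrane proteins, was 10.26 in control mouse 8 (nearest 10.15). Each of these 5 mice was the highest of its genotype.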

How the results depend on the processing

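The count of chaperone probes called was 0 under every alternative run, and by brightest probe or mean of probes the lowest adjusted p of a member gene was 0.174 (Hspa9, mean of probes). Of all 25697 probes 35 were called, 16 with mouse number as a replicate block and 23 of the genes with the mean of probes. Same-numbered mice correlated between -0.232 and 0.247 in their deviations, so the numbers were not taken as pairs. With dim probes left out, 4 member probes and 3 member genes passed the unadjusted level of 0.025, against 8 and 7 with all probes. Of all probes kept, 4.10% passed it. In the main fit, by brightest probe, 9.09% of the 77 member genes passed it, against 3.13% of all 16593 genes. Of the 8 probes, 3 were dim and no longer in the fit, and Dnajc28 also lost that level. Its values were the same in both fits, which differed only in the probes from which limma estimated the shared spread. Leaving out 1 mouse gave 28 to 37 calls over the table, 6 to 9 member probes and 5 to 8 member genes at the unadjusted level. The shares of all probes and genes at that level with 1 mouse left out are not given here. No source used here gives the slide of an array, and the planned fit with it as a block was not run.

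Some small, uncalled changes turned sign. With the mean of probes, which takes in dimmer probes of the opposite sign, Dnajb6 gave 0.0143, Dnajc10 -0.00377, Dnajc19 -0.0013 and Hsp90aa1 0.000571. For the sign changes with mice left out, the cause was not tested. Without control mice 3 and 7, Cct4 gave 0.0154, Dnajb6 0.0032, Hsp90aa1 0.00308, Hspb8 -0.0271 and Hsph1 0.0187. With each mouse left out in turn, changes ran from -0.0146 to 0.0352 for Bag5, -0.00677 to 0.0257 for Bag6, -0.0283 to 0.016 for Cct4, -0.0684 to 0.0141 for Dnajb2 and -0.0264 to 0.0197 for Dnajb6. They ran from -0.0115 to 0.0193 for Dnajc10, -0.00656 to 0.0232 for Dnajc19, -0.0101 to 0.00257 for Hsp90aa1, -0.0982 to 0.0737 for Hspa1a and -0.0406 to 0.00738 for Hspa8. For Hspb1 they ran from -0.053 to 0.107, for Hspb8 -0.0342 to 0.0416, for Hspe1 -0.0608 to 0.0155, for Hsph1 -0.0818 to 0.0517 and for Tcp1 -0.0634 to 0.00638.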
